A study of Mus musculus with 4 samples.

Results

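Integrins are the receptors that fix cells to the matrix, and laminins are the trimeric proteins of the basement membrane that several of them bind. The genes described here were those with an array probe set whose single gene symbol begins with Itga, Itgb, Lama, Lamb or Lamc. The rule took 84 probe sets of 39 genes, out of 18193 genes read on the array. Of these, 25 encode integrin subunits and 10 encode laminin chains. The other 4, Itgb1bp1, Itgb1bp2, Itgb3bp and Itgbl1, carry a matching name only. Itga11 and Itgad had no probe set listed under their symbol alone and were not analysed here.

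RNA came from kidneys of male C57Bl/6 mice, either wild type (WT) or labelled Tet2KO, after sham surgery or after 60 min of renal ischemia and 24 h of reperfusion. The product of Tet2 is a dioxygenase that acts on methylated cytosines. The 4 groups had 1 Affymetrix array each, hybridised with the pooled RNA of 3 mice, so mice of a group cannot be separated and no value has a replicate error. The labels give no age and do not say which part of Tet2 was removed or in which cells. In the sham array labelled Tet2KO the probe sets of Tet2 read 9.87 and 10.25 on the log2 scale, against 9.96 and 9.84 in WT sham. The differences were -0.09 and 0.41, with -0.41 and -0.70 in the injured arrays; since it is not known where these probe sets lie against the deletion, they may check nothing. These arrays are called knockout-labelled throughout.

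Values are log2 signals as deposited, given in the order WT sham, WT ischemia-reperfusion, knockout-labelled sham and knockout-labelled ischemia-reperfusion. A floor was set at the 40th percentile of all signals, 5.72 on the log2 scale, and a gene was measured in a comparison if it reached the floor in 1 of the arrays compared. A ratio with 1 side at the floor is a bound, written as at least N-fold. Of the 39 genes, 30 reached the floor in all 4 arrays, 5 in 1 to 3 arrays and 4 in none. A gene was called higher or lower at 2-fold or more. Where a gene had several probe sets, the SD of their log2 ratios around the gene's mean, over all genes, was 0.24 for the WT pair, 0.39 for the knockout-labelled pair, 0.19 between the sham arrays and 0.32 between the ischemia-reperfusion arrays. That SD holds no differences between mice. Signals of different probe sets are not compared with each other.

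Each integrin is a dimer of 1 alpha and 1 beta subunit. Beta 1 is the partner of most alpha subunits, among them alpha 3, a laminin receptor of epithelia and podocytes, and alpha 8, a receptor for nephronectin found on mesangial cells and other stroma. A laminin holds 1 alpha, 1 beta and 1 gamma chain; the glomerular basement membrane of the adult kidney is built mainly on alpha 5, beta 2 and gamma 1. The bases before the start of Itga3, Itga8 and Itgb1 are shown because these genes make up the dimers whose alpha subunits differed most between the ischemia-reperfusion arrays. Capitals mark CG dinucleotides, the context in which most cytosine methylation occurs in mammals. The stretches come from RefSeq on build GRCm38.p6 and end where the annotated gene begins: chr11:95076845-95076964 on the minus strand for Itga3, chr2:12301986-12302194 on the minus strand for Itga8 and chr8:128685404-128685653 on the plus strand for Itgb1.
Itga3: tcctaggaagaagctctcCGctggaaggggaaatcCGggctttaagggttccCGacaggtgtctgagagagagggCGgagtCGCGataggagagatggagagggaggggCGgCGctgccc
Itga8: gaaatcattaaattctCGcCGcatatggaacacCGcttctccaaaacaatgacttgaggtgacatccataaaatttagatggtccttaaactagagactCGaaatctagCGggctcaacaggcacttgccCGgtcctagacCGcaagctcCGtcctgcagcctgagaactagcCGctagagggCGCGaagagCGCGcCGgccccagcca
Itgb1: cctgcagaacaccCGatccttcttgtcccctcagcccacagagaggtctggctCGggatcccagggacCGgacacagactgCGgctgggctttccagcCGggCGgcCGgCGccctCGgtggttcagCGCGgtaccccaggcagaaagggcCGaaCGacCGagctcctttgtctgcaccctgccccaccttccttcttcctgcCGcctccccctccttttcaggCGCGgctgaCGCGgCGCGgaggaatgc

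All 3 stretches were rich in CG. Over the full 250 bases before the start, the windows held 22 CG in Itga3 (5 at its other listed start), 18 in Itga8 and 21 in Itgb1, against a median of 6 and an interquartile range of 2 to 16 over 32851 promoter windows; 92.1% of windows held at least 1 CG. The motif CCGCCC, which contains a CG, was searched on both strands. It occurred 2 times in the stretch shown for Itga3, 1 time in that for Itgb1 and 0 times in that for Itga8. The stretches for Itga3 and Itga8, of 120 and 209 bases, are shorter than the windows. In the full windows it occurred 3 times in Itga3 (1 at its other listed start), 1 time in Itgb1 and 0 times in Itga8. It lies in 32.7% of all windows. Neither TGACTCA, whose reverse complement is TGAGTCA, nor TATAAA occurred in the 3 stretches or in the full windows of these genes. They lie in 4.46% and 12.4% of all windows. RefSeq windows matched 26 of the 39 genes, and Itga6, Itga7, Itgae, Itgal, Itgb1bp2, Itgb2, Itgb3, Itgb4, Lama1, Lama3, Lama4, Lamc1 and Lamc3 had none in the table. No methylation was measured, and a match of letters is a description.

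After ischemia-reperfusion most integrin and laminin genes stayed within 2-fold of sham. The lowest ratio in the WT pair was that of Itga8, and the highest in the knockout-labelled pair was that of Itga3. In the WT pair 0 of 34 measured genes were higher at 2-fold or more, where 2.06% of all 13531 genes measured were, and 1 was lower, Itga8, where 2.18% of all genes were. In the knockout-labelled pair 3 of 34 were higher, against 6.06% of 13600 genes, and 2 were lower, against 6.89%. The 3 higher genes were Itga3, Itga6 and Itga7, which make up the class listed here as laminin-binding alpha subunits. The 2 lower genes were the laminin alpha chains Lama2 and Lama3. The medians over the measured genes were near 0 in both pairs, 0.00058 and 0.032 on the log2 scale, beside 0.017 and -0.017 over all genes. With 3 and 2 genes of 34, the counts are shares of 8.82% and 5.88%, close to the background.

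At a lower threshold of 1.5-fold, added after the values were seen, the knockout-labelled pair had 10 of 34 genes higher, or 29.4%, beside 14.6% of all genes, and 5 lower, or 14.7%, beside 14.5%. The genes added on the higher side were Itgb1, Itgb2l, Itgb3, Itgb4, Lama5, Lamb3 and Lamc1. The counts at this threshold were not repeated under the alternative settings, and several of these genes depend on them. With the median over probe sets Itgb1 was 1.16-fold higher, Itgb3 at least 1.01-fold and Lamc1 1.37-fold, while Itgb2l was 1.06-fold lower. Itga3, Itga6, Itga7, Itgb4, Lama5 and Lamb3 stayed over 1.5-fold there. Lamb3 was 1.46-fold lower against the other sham array. In the WT pair 1 of 34 was higher at that threshold, Itga3, beside 5.98% of all genes, and 3 were lower, Itga8, Lama4 and Lamb3, beside 6.29%.

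**Figure D1:**
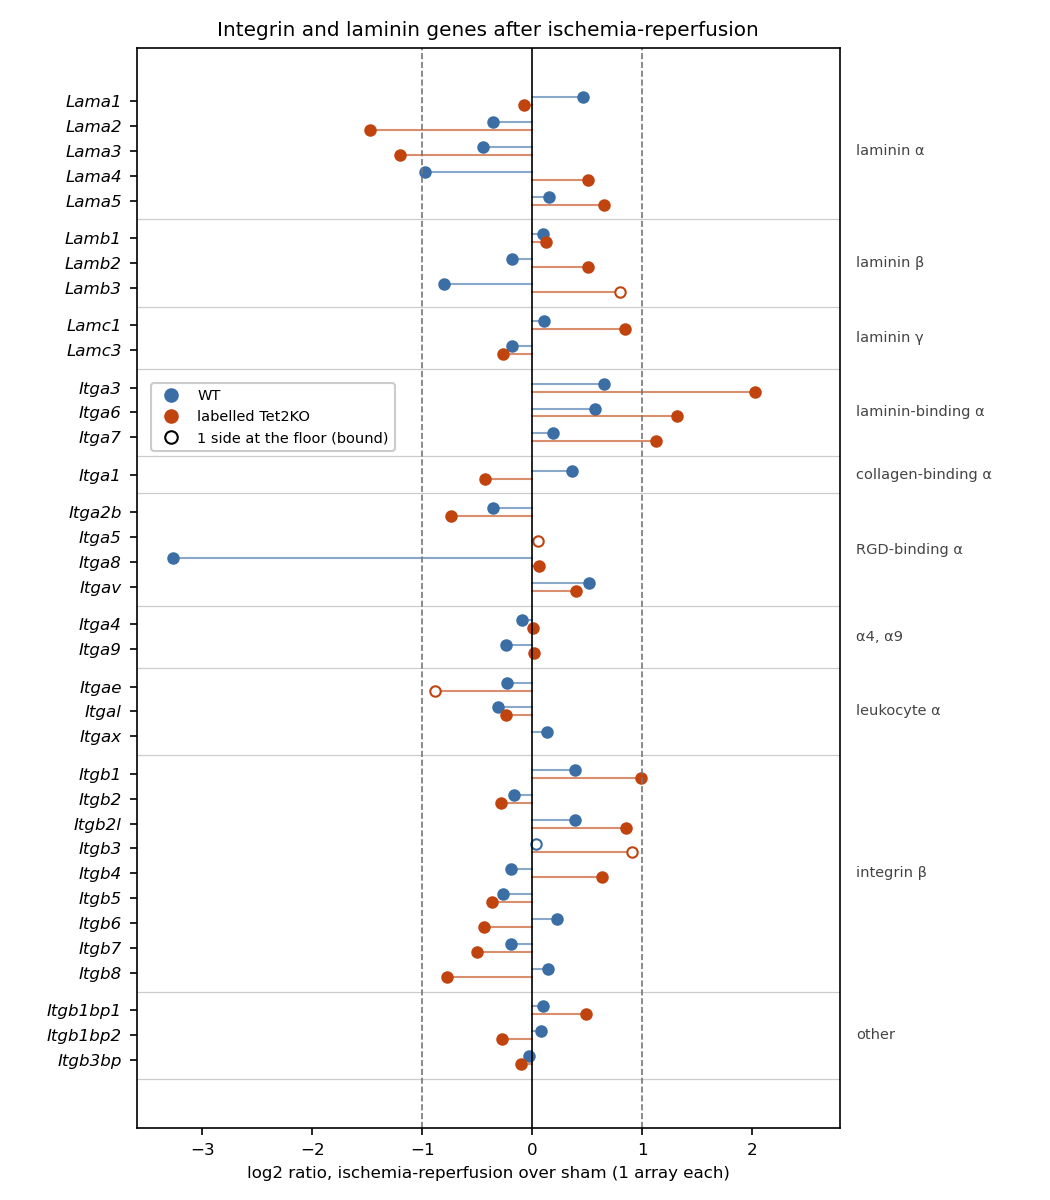
Log2 ratio of ischemia-reperfusion over sham for each measured integrin and laminin gene, grouped by subunit class, in the WT pair (blue) and the knockout-labelled pair (red), with 1 array per group and no error bars; dashed lines mark 2-fold and open circles mark ratios with 1 side at the floor. Itga8 lies at -3.27 in WT and 0.07 in the knockout-labelled pair, and the laminin-binding subunits Itga3, Itga6 and Itga7 lie at 2.03, 1.32 and 1.13 in the knockout-labelled pair.

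The laminin-binding alpha subunits were the one class with every measured gene at 2-fold or more in a pair. Itga3 encodes alpha 3 and had log2 signals of 8.50, 9.15, 8.36 and 10.39. It was 1.57-fold higher after ischemia-reperfusion in WT and 4.08-fold higher in the knockout-labelled pair, so that the injured arrays differed by 2.35-fold while the sham arrays differed by 1.10-fold. Its other probe sets gave smaller ratios, 0.18 and -0.14 on the log2 scale in WT and 0.83 and 0.20 in the knockout-labelled pair, so the size of the Itga3 difference depends on the probe set. With the median over its probe sets Itga3 was 1.77-fold higher in the knockout-labelled pair and not at 2-fold.

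Itga6 encodes alpha 6, which pairs with beta 1 or, in hemidesmosomes, with beta 4. Its signals were 9.89, 10.46, 9.81 and 11.13, which is 1.49-fold higher in WT and 2.49-fold higher in the knockout-labelled pair. Here both probe sets moved alike: the other one gave log2 ratios of 0.35 and 1.69. Itga7, whose product is a laminin receptor best known in muscle, read 6.42, 6.61, 6.31 and 7.44 on its single probe set, or 1.14-fold higher in WT and 2.19-fold higher in the knockout-labelled pair. For all 3 genes the knockout-labelled ischemia-reperfusion array was the highest of the 4. Against the WT sham array in place of its own control, that array was still higher, 3.70-fold for Itga3, 2.37-fold for Itga6 and 2.03-fold for Itga7. With a pseudocount of 50 in place of the floor Itga7 was 1.73-fold higher in the knockout-labelled pair and not at 2-fold.

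The common partner Itgb1 stood just under the threshold. It read 10.86, 11.25, 10.82 and 11.81, and was 1.31-fold higher in WT and 1.98-fold higher in the knockout-labelled pair. Its other probe sets over the floor gave log2 ratios of 0.43 and 0.31 in WT and 0.83 and 0.61 in the knockout-labelled pair, the same order. Itgb4, the hemidesmosome partner of alpha 6, read 6.28, 6.09, 6.09 and 6.73, so 1.14-fold lower and 1.56-fold higher.

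Markers of injured tubules, of tubule segments and of podocytes, a cell type that expresses Itga3, also differed between these arrays. The 6 injured tubule markers, such as Havcr1 and Lcn2, summed to linear signals of 1656, 22684, 565 and 40867. At 2-fold 6 of 6 were higher in the knockout-labelled pair, beside 6.06% of all genes, and 3 of 6 in WT, beside 2.06%. The sham arrays already differed: 2 of 6 were lower in the knockout-labelled one and none was higher. The 2 were Havcr1 and Krt18, with log2 ratios of -2.52 and -2.18. The contrast between the pairs thus depends in part on the sham arrays. Between the injured arrays 4 of 6 were higher in the knockout-labelled one. The 5 podocyte markers read, of 6 listed, summed to 1619, 450, 1661 and 3120, and 3 of 5 were higher in the knockout-labelled pair. Tubule segment markers went the other way. The 6 of proximal tubule summed to 81558, 57851, 82358 and 43077, with 4 of 6 lower in that pair. The 5 of loop of Henle and distal tubule summed to 58732, 41243, 53774 and 21272, with 4 of 5 lower. The 4 of collecting duct read, of 5 listed, summed to 6525, 5722, 5064 and 3414, with 3 of 4 lower. Fewer of each list were lower in WT. None of these markers was under the floor in all 4 arrays. Their part in the integrin values was not tested. In RNA of bulk kidney tissue, fewer cells of a type and less RNA per cell cannot be told apart.

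**Figure D2:**
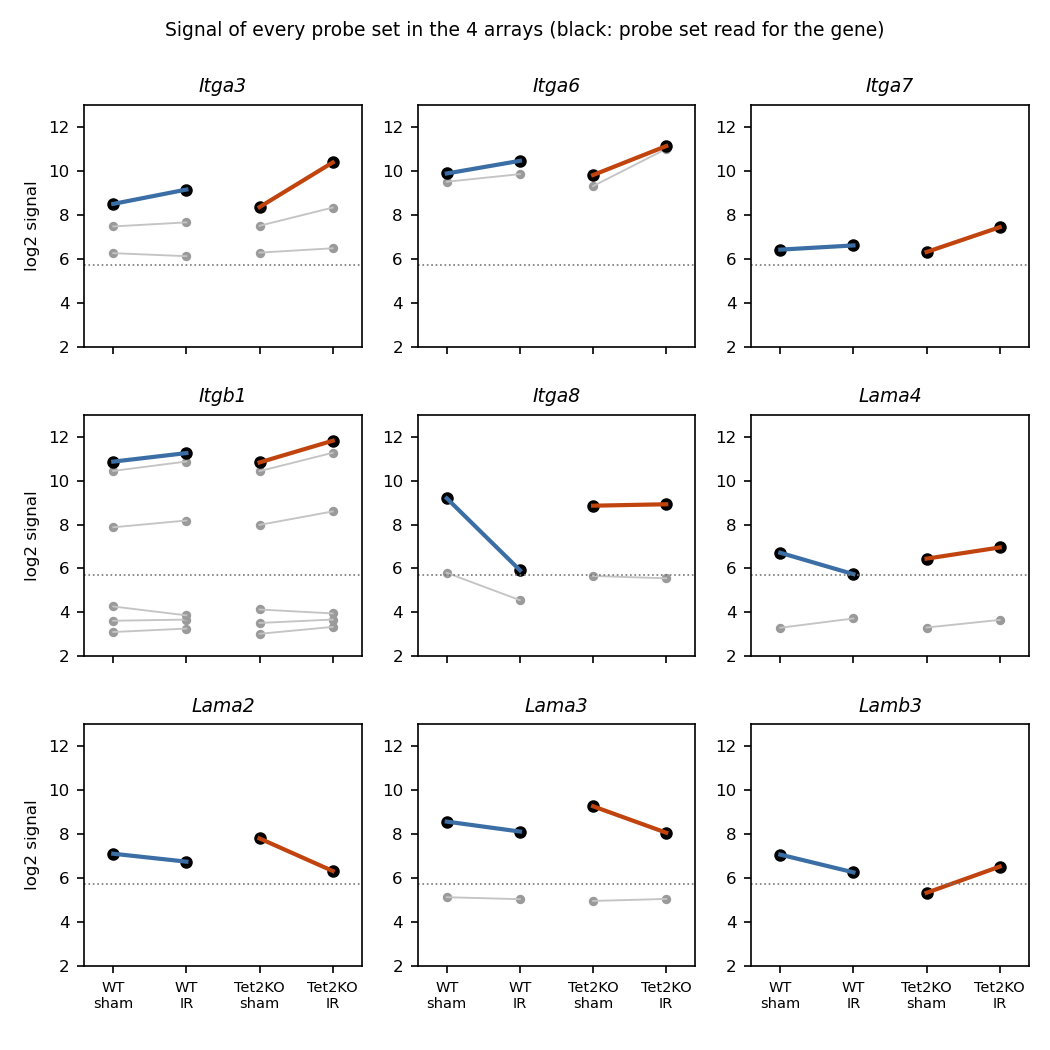
Log2 signal of every probe set of 9 genes in the 4 arrays; each point is 1 array of RNA from 3 pooled mice, lines join the sham and ischemia-reperfusion (IR) arrays of a label, black points mark the probe set read for the gene, grey points its other probe sets and the dotted line the floor of 5.72. Itga8 falls from 9.19 to 5.92 in the WT arrays and stands at 8.86 and 8.92 in the knockout-labelled arrays, while Lama2 and Lama3 are highest in the knockout-labelled sham array.

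Among the subunits that bind the RGD motif of matrix proteins, Itga8 had the largest ratio of any gene described here. Its signals were 9.19, 5.92, 8.86 and 8.92. The WT ischemia-reperfusion array stood alone, 9.66-fold lower than its sham control, while the knockout-labelled pair differed by 1.05-fold. The injured arrays therefore differed by 8.0-fold, higher in the knockout-labelled one, and the responses by 3.34 on the log2 scale. The other probe set, with signals of 5.80, 4.56, 5.66 and 5.55 near the floor, gave -1.24 in WT and -0.11 in the knockout-labelled pair. The size depends on the processing, since the WT ischemia-reperfusion signal lay just above the floor. With a pseudocount of 50 Itga8 was 5.74-fold lower in WT and 4.84-fold higher between the injured arrays, and with the median over its probe sets 3.42-fold and 2.86-fold.

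Markers of mesangial and other stromal cells and of podocytes were low in the same array. The 6 mesangial, mural and fibroblast markers read, of 7 listed, summed to linear signals of 3649, 1666, 2605 and 5226; 3 of 6 were lower in WT, among them Pdgfra by 5.81-fold, and 2 were higher and 2 lower in the knockout-labelled pair. Of the 5 podocyte markers 3 were lower in WT, among them Podxl with a log2 ratio of -2.44. None of these markers was under the floor in all 4 arrays. Their part in the Itga8 value was not tested. Npnt, which encodes the alpha 8 ligand nephronectin, had log2 ratios of -0.45 in WT and 0.34 in the knockout-labelled pair.

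The other RGD-binding subunits varied less. Itgav, which encodes alpha v, the partner of several beta chains, read 12.30, 12.82, 12.24 and 12.64, 1.43-fold higher in WT and 1.31-fold higher in the knockout-labelled pair. Itga2b, the platelet subunit alpha IIb, read 8.56, 8.21, 8.38 and 7.65, or 1.28-fold and 1.67-fold lower. Of the 5 platelet markers 2 were higher in the knockout-labelled pair, Pf4 and Ppbp, with log2 ratios of 1.90 and of at least 2.36. The other 3 had 0.09 for Gp9, 0.06 for Treml1 and -0.34 for Gp1bb. The summed linear signals of the list were 536, 495, 524 and 1094. Itga5, the fibronectin receptor subunit, reached the floor only in the knockout-labelled ischemia-reperfusion array, at 5.77.

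Of the beta chains that pair with alpha v, Itgb8 and Itgb6 had their lowest signal in the knockout-labelled ischemia-reperfusion array. The summed signals of the tubule segment markers were lowest there too, and the part of these markers in the Itgb8 and Itgb6 values was not tested. Itgb8, whose dimer with alpha v releases active TGF-beta, read 12.04, 12.18, 12.20 and 11.42, 1.10-fold higher in WT and 1.71-fold lower in the knockout-labelled pair. Itgb6, an epithelial chain with the same activity, read 9.55, 9.77, 9.51 and 9.07, 1.17-fold higher and 1.36-fold lower. Its other probe set, at -0.14 in WT, had the opposite sign there and gave -0.37 in the knockout-labelled pair. Itgb3 was below the floor in both sham arrays, at 5.63 and 5.56, and read 5.75 and 6.63 after ischemia-reperfusion, so it was at least 1.88-fold higher in the knockout-labelled pair. Its other probe set lay below the floor in all 4 arrays. Itgb5, another partner of alpha v, read 10.10, 9.84, 10.16 and 9.80, with log2 ratios of -0.26 and -0.36, with its 4 probe sets between -0.36 and -0.11 in both pairs.

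The collagen receptor subunit Itga1 read 9.33, 9.70, 9.56 and 9.13, with log2 ratios of 0.37 in WT and -0.43 in the knockout-labelled pair. Its other probe set gave -0.45 and -0.63, so the sign in WT is not settled. Itga2 and Itga10, which bind collagen too, lay below the floor in all arrays. Itga4 and Itga9, receptors for VCAM-1, fibronectin and tenascin, stayed within 1.18-fold of sham in both pairs; their log2 ratios were -0.09 and -0.24 in WT and 0.00 and 0.01 in the knockout-labelled pair.

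Integrins of leukocytes had no gene called at 2-fold with the floor. Itgb2, the beta chain of leukocyte integrins, read 6.11, 5.94, 6.50 and 6.22. Itgal, the alpha chain of LFA-1, read 6.51, 6.20, 6.65 and 6.41, and Itgam, the alpha chain of Mac-1 on neutrophils and macrophages, was below the floor in all arrays at 4.13 to 4.65. Itgae, a subunit of T cells in epithelia, read 6.66, 6.43, 6.60 and 5.51. It was at least 1.84-fold lower in the knockout-labelled pair, or 2.13-fold lower without the floor. Itgax lay at 5.99, 6.12, 5.72 and 5.57, and Itgb7, the partner of alpha E and alpha 4, at 6.74, 6.54, 6.85 and 6.35. Itgb2l, a beta 2 paralogue, was 1.80-fold higher in the knockout-labelled pair on 1 probe set, while its other probe sets gave -0.26 and -0.15.

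Leukocyte markers went both ways in the same arrays. The 4 neutrophil markers read, of 5 listed, summed to linear signals of 218, 378, 210 and 2161, with 2 of 4 higher in the knockout-labelled pair. These were S100a8 and S100a9, with log2 ratios of at least 4.31 and of 3.85, while Csf3r had 0.30 and Mmp8 at least 0.42. The neutrophil sums hold signals below the floor, and only 2 of these 4 genes were measured between the sham arrays. The 5 macrophage markers summed to 3449, 1981, 3392 and 2920. In the knockout-labelled pair Cd14 and Cd68 were higher, with 4.36 and at least 2.16, Csf1r and Lyz2 lower, with -2.27 and -1.04, and Adgre1 had -0.64. The 5 general leukocyte markers summed to 918, 743, 1180 and 696, with 0 higher and 3 lower in that pair; among them Ptprc had a log2 ratio of -1.20. The 4 lymphocyte markers read, of 5 listed, summed to 311, 274, 354 and 262. Of these, Cd3g and Cd79a were under the floor in all 4 arrays, and the 2 measured had log2 ratios below 0 in both pairs. None of the other leukocyte markers was under the floor in all 4 arrays. The part of any of these markers in the integrin values was not tested.

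Of the laminin chains, the alpha chains Lama2 and Lama3 were lower after ischemia-reperfusion in the knockout-labelled pair, and the chains of the epithelial and glomerular trimers, Lama5 and Lamc1, were higher at 1.5-fold. Lama2, the main alpha chain of muscle laminin and also made by mesangial cells, read 7.11, 6.75, 7.80 and 6.32, 1.28-fold lower in WT and 2.79-fold lower in the knockout-labelled pair. Lama3, a chain of the laminin of epithelial anchoring, read 8.57, 8.11, 9.26 and 8.06, 1.37-fold and 2.30-fold lower. Its other probe set was below the floor in all arrays.

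For both genes the knockout-labelled sham array was the highest of the 4, 1.62-fold over WT sham in each. The injured arrays differed less, by 1.34-fold for Lama2 and 1.04-fold for Lama3. With the WT sham array as control, the knockout-labelled ischemia-reperfusion array was 1.72-fold lower for Lama2 and 1.42-fold lower for Lama3, so neither reached 2-fold. Against the sham array labelled Tet2KO, the WT ischemia-reperfusion array was 2.08-fold and 2.22-fold lower. The call in each pair thus depended on which sham array served as control.

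Lama4, the alpha chain of vessel walls, had log2 signals of 6.71, 5.74, 6.45 and 6.96. It was 1.96-fold lower in WT, where the injured array lay at the floor's edge, and 1.42-fold higher in the knockout-labelled pair. The injured arrays differed by 2.32-fold, or by 1.68-fold with a pseudocount of 50 in place of the floor. Its other probe set lay below the floor in all 4 arrays. The 6 endothelium markers summed to 2349, 661, 2138 and 1702; 3 of 6 were lower in WT and 1 in the knockout-labelled pair, and none was under the floor in all arrays. Their part in the Lama4 value was not tested.

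Lama5 read 8.89, 9.04, 9.07 and 9.72, so 1.11-fold and 1.57-fold higher, and its other probe set over the floor gave log2 ratios of 0.19 and 0.83. Lamc1, the gamma chain of most laminins, read 7.49, 7.60, 7.50 and 8.35, or 1.08-fold and 1.80-fold higher, with 0.05 on its other probe set in the knockout-labelled pair. Their beta partners differed in size: Lamb2 had log2 ratios of -0.19 and 0.51, and Lamb1, at 11.23, 11.33, 11.22 and 11.34, had 0.10 and 0.12. Lama1, an alpha chain of tubular basement membrane, had 0.47 in WT and -0.08 in the knockout-labelled pair, and Lamc3 had -0.19 and -0.26.

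Lamb3, the beta chain that joins alpha 3 in the anchoring laminin of stratified epithelia, was the only gene described here called between the sham arrays. Between these arrays 1 of 33 measured genes was lower, beside 0.846% of 13474 genes, and 0 were higher, beside 0.186%. At 1.5-fold 2 of 33 were higher in the sham array labelled Tet2KO, Lama2 and Lama3, beside 1.02%, and Lamb3 alone was lower, beside 2.43%. The log2 signals of Lamb3 were 7.07, 6.26, 5.33 and 6.52, so it was at least 2.54-fold lower in the knockout-labelled sham array. It was 1.75-fold lower after ischemia-reperfusion in WT and at least 1.74-fold higher in the knockout-labelled pair, but each direction turned with the other sham array as control, to 1.45-fold higher in WT and 1.46-fold lower in the knockout-labelled array. The injured arrays differed by 1.20-fold.

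The summed signal of the urothelium markers had a like order, but most single markers did not share all of it. Each was lowest in the knockout-labelled sham array, as Lamb3 was. Between the injured arrays 3 of the 5 had negative log2 ratios, with a median of -0.03 over the list, beside 0.26 for Lamb3. The 5 markers summed to 928, 628, 503 and 767, with 2 of 5 lower between the sham arrays, Upk1b with a log2 ratio of -1.52 and Upk3a with -1.63, and none under the floor in all arrays. Fat markers were also unequal between the sham arrays: the 4 adipose markers read, of 5 listed, summed to 2188, 120, 113 and 1129. The part of either in the Lamb3 value was not tested.

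**Figure D3:**
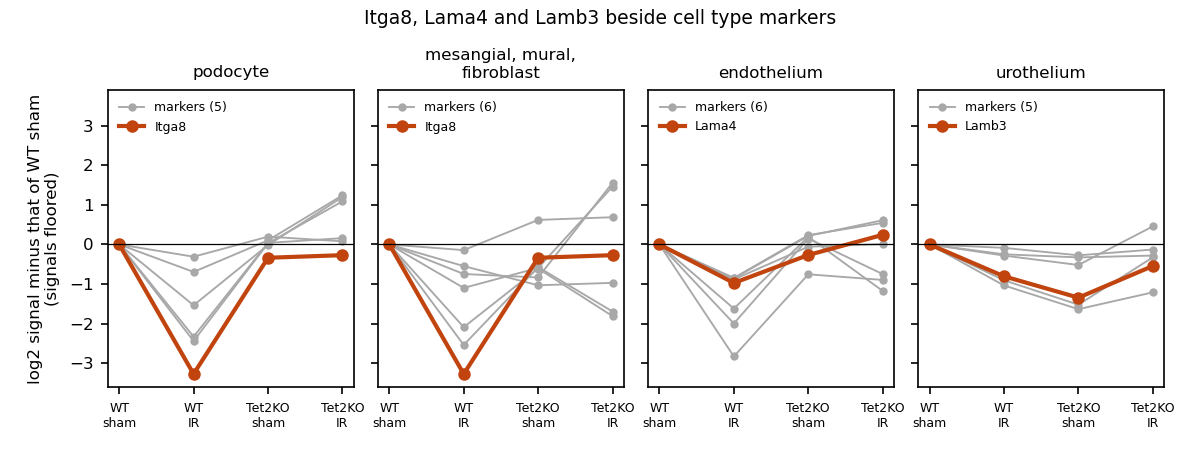
Log2 signal minus that of the WT sham array, after flooring, in each of the 4 arrays for Itga8, Lama4 and Lamb3 (red) and for single marker genes (grey) of podocytes, of mesangial, mural and fibroblast cells, of endothelium and of urothelium; lines only join the points of a gene, and each point is 1 array. Itga8 and most podocyte markers are lowest in WT ischemia-reperfusion (IR), and Lamb3 is lowest in knockout-labelled sham.

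Between the injured arrays 3 of 35 measured genes were higher in the knockout-labelled one, Itga3, Itga8 and Lama4, beside 3.68% of 13492 genes, and 0 were lower, beside 3.99%. The difference of the responses was 2-fold or more higher for 4 of 35, beside 4.75% of 13808 genes, namely Itga3, Itga8, Lama4 and Lamb3, and lower for 1, Lama2, beside 4.77%. The difference is made of the same 4 arrays as the pairs and adds no independent measurement. At 1.5-fold 10 of 35 were higher between the injured arrays, beside 10.6%, and 3 lower, Itgae, Itgb6 and Itgb8, beside 10.5%. The difference of responses at 1.5-fold was higher for 11 of 35, beside 11.1%, and lower for 6, beside 12.5%.

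The 4 genes that carry a matching name only had no call. Itgb1bp1, whose product binds the beta 1 tail and restrains its activation, read 9.58, 9.69, 9.71 and 10.19, with log2 ratios of 0.10 in WT and 0.49 in the knockout-labelled pair. Itgb1bp2, the muscle protein melusin, had 0.08 and -0.28, Itgb3bp, a centromere protein, had -0.03 and -0.10, and Itgbl1 lay below the floor.

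Genes that work with these receptors were taken from lists of ligands, basement membrane parts and adhesion proteins. Their counts stand beside 2.06% higher and 2.18% lower of all genes in the WT pair, and 6.06% and 6.89% in the knockout-labelled pair. Of the list of talins, kindlins and the adhesion complex, 1 of 25 was higher in WT and 6 of 25 in the knockout-labelled pair. The counts of lower genes were 0 and 1, and the median log2 ratios 0.10 and 0.68. The 6 were Actn1, Bcar1, Flna, Src, Vasp and Zyx. The actin crosslinker Actn1 was 2.99-fold higher in WT and 5.67-fold in the knockout-labelled pair, with 0.75 and 1.01 as log2 ratios of its other probe sets in the latter; with the median over probe sets it was 1.54-fold and 2.01-fold higher. In that pair the filamin gene Flna was 4.39-fold higher, Vasp 2.76-fold and Zyx 3.26-fold, with 0.98 on the other probe set of Zyx. Tln2, a talin that activates integrins, was 4.0-fold lower, with -1.89 and -0.23 on its other probe sets, while the log2 ratio of Tln1 was 0.34.

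Other laminin receptors had 0 of 7 genes higher in WT and 3 of 7 in the knockout-labelled pair, and 0 lower in either. The syndecan Sdc1 was 4.99-fold higher in the latter, with other probe sets from 0.62 to 2.67 on the log2 scale. The tetraspanin Cd151, a partner of alpha 3 and alpha 6, was 2.79-fold higher, or 2.75-fold with the median over probe sets. Its other probe sets gave 1.44, 1.39, 1.38, -0.01 and -0.17. Rpsa, which encodes a laminin-binding ribosomal protein, was 2.03-fold higher, or 1.58-fold with the median over probe sets. The log2 ratio of the dystroglycan gene Dag1 in that pair was -0.06. Plec, whose product plectin ties beta 4 to keratin, was 2.46-fold higher in WT and 4.64-fold in the knockout-labelled pair, or 1.41-fold and 2.34-fold with the median over probe sets. The tetraspanin Cd9, at 11.13, 11.64, 10.45 and 11.62, was 1.43-fold and 2.26-fold higher. Against the other sham array the order turned, to 2.29-fold in WT and 1.41-fold in the knockout-labelled array. Of the hemidesmosome and tetraspanin list 1 of 7 and 3 of 7 were higher.

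Of integrin ligands other than laminins, 2 of 11 were higher in WT and 5 of 11 in the knockout-labelled pair, with 0 lower. The fibrinogen chain Fgg read 9.24, 12.31, 7.26 and 13.44 and was 8.44-fold and 72.2-fold higher. Its sham arrays differed by 3.93-fold, and against the other sham array it was 33.1-fold and 18.4-fold higher. The leukocyte ligand Icam1 was 2.78-fold and 2.25-fold higher, but 1.90-fold in WT against the other sham array. The alpha 9 ligand Tnc had log2 signals of 7.97, 7.20, 6.49 and 9.66, 1.70-fold lower in WT and 9.01-fold higher in the knockout-labelled pair; against the other sham array the direction in WT turned, to 1.64-fold higher, and the knockout-labelled array was 3.23-fold higher. With the median over its probe sets, the other of which lay below the floor, Tnc was 2.61-fold higher in the knockout-labelled pair. Vcam1 was 2.52-fold higher in that pair, with 0.96 and 0.52 on its other probe sets, 1.94-fold with the median over them and 4.30-fold against the other sham array, and Mfge8, a ligand of alpha v, 3.04-fold higher. The log2 ratio of the fibronectin gene Fn1 in that pair was -0.41.

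Other basement membrane genes went both ways in the knockout-labelled pair, with 4 of 16 higher and 3 of 16 lower, against 2 and 0 of 17 in WT. Tinagl1 was 2.48-fold higher in WT and 7.72-fold in the knockout-labelled pair, and Col18a1 2.17-fold and 3.67-fold, the former 1.88-fold against the other sham array. The common collagen IV chains Col4a1 and Col4a2 were 2.58-fold and 2.04-fold higher in the knockout-labelled pair, the first with 0.33 on its other probe set and 1.80-fold with the median over both, while Col4a3, a chain of the glomerular network, was 2.66-fold lower. Fras1, with -0.33 on its other probe set, was 4.11-fold lower, or 2.28-fold with the median over both, and Frem2 at least 3.83-fold lower, or at least 2.40-fold against the other sham array; both proteins anchor epithelia in development.

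**Figure D4:**
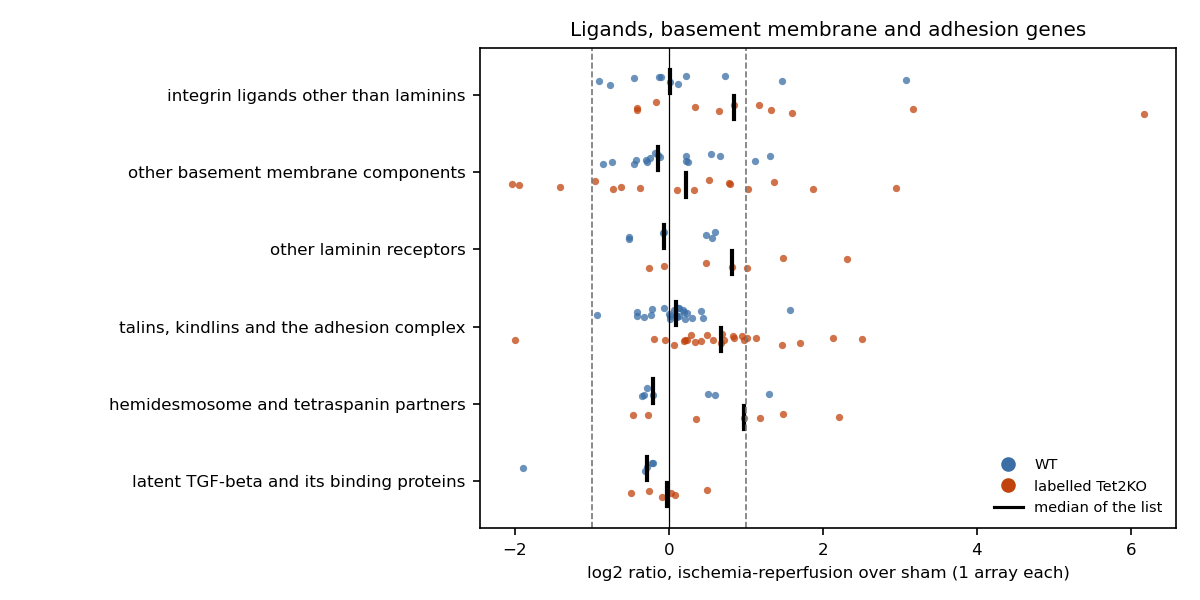
Log2 ratio of ischemia-reperfusion over sham of single genes (points) in 6 lists of ligands, basement membrane, receptor and adhesion genes, in the WT pair (blue) and the knockout-labelled pair (red), 1 array per group; black bars are medians over the measured genes, points are spread vertically for sight only and dashed lines mark 2-fold. The adhesion complex list has medians of 0.10 in WT and 0.68 in the knockout-labelled pair.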

How the data were processed

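The deposited table holds log2 signals of 45037 probe sets in 4 columns, and the log2 unit was read from the values. The submitters' processing notes name MAS5; its version and the authors' scaling are not given in the sources used here. Each gene was read from the probe set with the highest mean signal, with _x_at sets used only where a gene had no other. All 84 probe sets of the genes described matched the RefSeq table of GRCm38.p6 by Entrez identifier, and 0 symbols were updated. Every gene taken by the name rule was named; of each other list, at most the 4 largest at 2-fold per direction were named, with further genes singled out after their values were seen. The genes and lists were chosen with earlier results of these data known. No gene was at 2-fold in both pairs in 1 direction, the planned rule for promoters, so the stretches shown were chosen after the values were seen. Protein sequences were not used here. With 1 array per group no test was made, and precision is limited by how many arrays there are. The alternatives were a pseudocount of 50, no floor, the median over probe sets, quantile normalization and the other sham array; a lower threshold of 1.5-fold was added after seeing the data. Python 3.11.15, pandas 2.3.3 and numpy 2.4.6 were used, and the ratios were tested on simulated data.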

Additional observations from a re-analysis of the deposited data

Results flagged for a closer look

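Among the genes named by the naming rule, markers not included, the WT and the knockout-labelled pair had ratios of opposite sign in 4, each larger than the SD between probe sets of a gene in that pair; with 1 array per group the difference was not tested. Lama4 had log2 ratios of -0.97 and 0.51, a difference of 1.48. Lamb3 had -0.81 and 0.80, a difference of 1.60, and both signs turned with the other sham array as control. Itga1 had 0.37 and -0.43, a difference of -0.80, and its other probe set was negative in both pairs. Tnc had -0.77 and 3.17, a difference of 3.94, and its sign in WT turned with the other sham array as control. Genes outside the naming rule met the same condition, among them Sparc, with -0.73 and 0.79, and the podocyte marker Podxl, with -2.44 and 1.06.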

How the results depend on the processing

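The counts of genes at 2-fold or more moved by over 1.5 times in these cases, and the cause was not tested unless the setting itself shows it. With the other sham array as control the WT count of lower genes went from 1 to 3 and the knockout-labelled count from 2 to 0, through Lama2 and Lama3. Without the floor the knockout-labelled count of higher genes went from 3 to 5, adding Itgb3 and Lamb3, whose signals below the floor then enter. With the median over probe sets the knockout-labelled count of lower genes was 1 in place of 2, without Lama3, and the count of higher genes between the injured arrays was 1 in place of 3, Itga8. With a pseudocount of 50 the count of lower differences of response was 0 in place of 1. Itga8 was called in the WT pair and between the injured arrays under all alternatives that apply to each. Among ratios of single genes, 681 of 732 alternative values moved by less than the SD between probe sets, 51 moved by more, and 0 called ratios changed sign. Many of these values could not move, so the 681 do not measure robustness. Without the floor, the 30 genes that reached it in all 4 arrays keep their ratios. The median over probe sets leaves the 17 genes with 1 probe set unchanged. Of the counts over the ligand, receptor and adhesion lists, 28 of 264 alternative values moved by over 1.5 times or to or from 0. Against the other sham array in WT, the ligand count went from 2 higher and 0 lower to 1 and 1, without Icam1 and with Icam2 lower, and the basement membrane count from 2 and 0 to 1 and 2. Signals near the floor limit Itga8 in WT ischemia-reperfusion, Itga5, Itgb3, Itgae, Itgax, Lama4 and Lamb3, and Ltbp1 and Frem2 of the other lists.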

Other observations

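Among latent TGF-beta genes, which alpha v integrins act on, 1 of 5 measured genes was lower in the WT pair, where 2.18% of all genes were, and 0 of 6 in the knockout-labelled pair. Ltbp1, which tethers latent TGF-beta to the matrix, had log2 signals of 7.67 and 5.79 in the WT sham and ischemia-reperfusion arrays, and 6.60 and 6.63 in the knockout-labelled ones. It was 3.69-fold lower in the WT pair and 1.02-fold higher in the knockout-labelled pair. The sham arrays already differed by -1.07 on the log2 scale. Against the other sham array, Ltbp1 was 1.75-fold lower in WT ischemia-reperfusion and 2.06-fold lower in the knockout-labelled one, so the call moved from one pair to the other.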
